A study of Homo sapiens with 6 samples.

Results

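SLC51A, SLC51B, KLB and BAAT encode proteins of bile acid handling and are described here in Caco-2, an established line of human colon carcinoma cells. These 4 genes were selected by gene symbol from 14884 named genes, with their differences between groups already known, and each was measured by 1 probe set. Caco-2 cells had been infected below confluence with a lentivirus that expressed a short hairpin RNA (shRNA), and total RNA was taken 17 days later. There were 3 groups of 2 arrays each: cells with FAM46A-shRNA#2, cells with FAM46A-shRNA#4, and cells with scramble shRNA. The FAM46A hairpins are directed against FAM46A, which encodes a non-canonical poly(A) polymerase, and the study asked which genes its depletion affects. All groups are the same line and all carry a lentivirus, the sources used here do not give the promoter that drives the hairpin, and the level of FAM46A was not analysed here, so the groups follow the labels alone.

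Bile acids are made in the liver, joined there to glycine or taurine by BAAT, secreted into the gut and taken back up in the ileum. Enterocytes pass them to the blood through a basolateral exporter built from the subunits SLC51A (OST-alpha) and SLC51B (OST-beta), which depend on each other to reach the membrane. Bile acids also activate the nuclear receptor FXR, which induces both exporter genes and FGF19, a gut hormone that acts through FGF receptors only together with the coreceptor KLB (beta-klotho) and lowers bile acid synthesis in the liver.

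Promoter sequences are shown because SLC51A, SLC51B and KLB were low together in the FAM46A hairpin groups while BAAT was not. They are the 250 bases before the RefSeq gene start (GRCh38.p14), 5′ to 3′ along the coding strand, from chr3:196216284-196216533 (plus strand), chr15:65045137-65045386 (plus), chr4:39406680-39406929 (plus) and chr9:101383874-101384123 (minus). Capitals mark in SLC51B the match to an inverted repeat described below, and in BAAT the matches of the CDX motif.
SLC51A: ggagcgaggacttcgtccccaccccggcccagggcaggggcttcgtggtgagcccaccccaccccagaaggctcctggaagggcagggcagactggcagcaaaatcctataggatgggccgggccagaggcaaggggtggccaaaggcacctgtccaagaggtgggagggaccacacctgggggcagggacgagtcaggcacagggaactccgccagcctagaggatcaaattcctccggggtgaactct
SLC51B: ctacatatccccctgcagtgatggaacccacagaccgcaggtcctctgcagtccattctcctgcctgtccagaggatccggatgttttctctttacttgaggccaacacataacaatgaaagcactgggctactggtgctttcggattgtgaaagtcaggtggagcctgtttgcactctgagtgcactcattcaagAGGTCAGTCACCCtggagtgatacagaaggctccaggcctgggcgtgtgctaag
KLB: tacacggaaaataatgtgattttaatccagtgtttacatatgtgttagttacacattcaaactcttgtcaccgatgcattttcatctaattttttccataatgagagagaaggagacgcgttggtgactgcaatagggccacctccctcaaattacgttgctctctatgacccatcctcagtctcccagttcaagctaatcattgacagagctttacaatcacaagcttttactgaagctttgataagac
BAAT: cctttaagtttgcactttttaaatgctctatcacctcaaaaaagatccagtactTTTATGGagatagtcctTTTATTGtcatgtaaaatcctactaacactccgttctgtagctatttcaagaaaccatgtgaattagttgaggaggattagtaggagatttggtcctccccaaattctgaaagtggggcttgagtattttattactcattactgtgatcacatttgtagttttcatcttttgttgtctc

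The search covered 6 short motifs on both strands of these windows. The TATA box was searched as TATAAA, the motif of HNF1 as GTTAAT, that of HNF4 as CAAAGTC, the hexamer of nuclear receptors as AGGTCA, the motif of GATA factors as AGATAA and that of CDX factors as TTTATNG. The SLC51A and KLB windows held none of the 6. In SLC51B the nuclear receptor hexamer AGGTCA lay 54 to 49 bases before the start on the coding strand, and 12.1% of 35116 RefSeq windows of this length hold it on either strand. FXR is known to bind inverted repeats of this hexamer with 1 base between them, so AGGTCANTGACCT was searched as well, a choice made after seeing the SLC51B window. The closest stretch in SLC51B, AGGTCAGTCACCC, began at that hexamer and differed from the repeat at 2 of its 12 fixed bases, and 0.945% of all windows held a stretch as close. The closest stretches in SLC51A and KLB had 4 and 5 mismatches, as close as in 46.5% and 95.2% of all windows. BAAT had 2 windows in RefSeq, with 2 matches of TTTATNG in the one printed, against 8.93% of all windows that hold it, and its other window held matches of the TATA box, the nuclear receptor hexamer and the CDX motif. The TATA box motif is in 10.7% of all windows, and its match there, 202 to 197 bases before the start, overlaps a CDX match on the opposite strand. The HNF1, HNF4 and GATA motifs, in 6.23%, 2.91% and 9.17% of all windows, were in none of the 5 windows of the 4 genes. A letter match shows neither binding nor a cause.

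The deposited values were relative to the median of each probe set over the 6 arrays and were read as log2, so 0 is the middle of the 6 arrays and differences between groups can be read but no gene's level can be compared with another's. SLC51B, the smaller exporter subunit, read -0.01 and -0.26 in FAM46A-shRNA#2 cells and -0.17 and 0.01 in FAM46A-shRNA#4 cells, against 1.60 and 1.41 in scramble cells. All 4 hairpin arrays were below both scramble arrays, and the hairpin groups overlapped each other. SLC51B was lower in the mean of both hairpins, with a log2 difference of -1.61 ± 0.098 (SE of the limma fit, 2 arrays a group), or 3.06-fold. SLC51A, the larger subunit, read -0.29 and 0.01 in FAM46A-shRNA#2 cells and -0.01 and -0.12 in FAM46A-shRNA#4 cells, against 0.55 and 0.33 in scramble cells. Its groups were apart in the same way, and its difference was smaller, -0.54 ± 0.104 or 1.46-fold. In these bulk samples, fewer cells of a kind and less RNA per cell cannot be told apart.

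The exporter subunits therefore differed by unequal amounts. SLC51B minus SLC51A was 0.28 and -0.27 in FAM46A-shRNA#2 cells and -0.16 and 0.13 in FAM46A-shRNA#4 cells, against 1.04 and 1.08 in scramble cells. The change in SLC51B exceeded that in SLC51A by 1.06 on the log2 scale with FAM46A-shRNA#2 (-1.64 against -0.58) and by 1.08 with FAM46A-shRNA#4 (-1.59 against -0.51). Both hairpins are set against the same scramble arrays, so these values are not independent of each other. The gap depended on the normalization and was narrower with quantile normalization. There the changes were -1.23 against -0.54 with FAM46A-shRNA#2 and -1.15 against -0.46 with FAM46A-shRNA#4. The gap is a ratio of changes, each read by 1 probe set, and not of transcript numbers.

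KLB, the coreceptor of FGF19 and FGF21, read -0.05 and -0.02 in FAM46A-shRNA#2 cells and 0.02 and -0.41 in FAM46A-shRNA#4 cells, against 2.03 and 1.91 in scramble cells. No hairpin array came near the scramble arrays, and replicate 2 of FAM46A-shRNA#4 was the lowest of the 6. KLB was 4.01-fold lower with FAM46A-shRNA#2 and 4.49-fold lower with FAM46A-shRNA#4, where the log2 difference was -2.17 ± 0.133. In the mean of both hairpins the log2 difference was -2.08 ± 0.116, or 4.24-fold. In the order of all 14884 genes from the most negative change in that mean, KLB was number 9, SLC51B number 24 and SLC51A number 449.

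BAAT, the acyltransferase that conjugates bile acids, had another pattern. It read -0.36 and -0.18 in FAM46A-shRNA#2 cells and 1.37 and 1.80 in FAM46A-shRNA#4 cells, against 0.18 and -0.20 in scramble cells. The FAM46A-shRNA#4 arrays stood above the other 4, and the FAM46A-shRNA#2 and scramble arrays overlapped. BAAT was higher by 1.60 ± 0.178 with FAM46A-shRNA#4 than with scramble (3.02-fold), number 21 from the top of all genes. With FAM46A-shRNA#2 the difference was -0.25 ± 0.178, with a 95% interval from -0.69 to 0.18, and it was -0.06 without replicate 1 of scramble and -0.44 without replicate 2 of scramble. Without replicate 1 of FAM46A-shRNA#2 it was -0.16. The mean of both hairpins, 0.67 ± 0.154, describes neither hairpin.

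**Figure D1:**
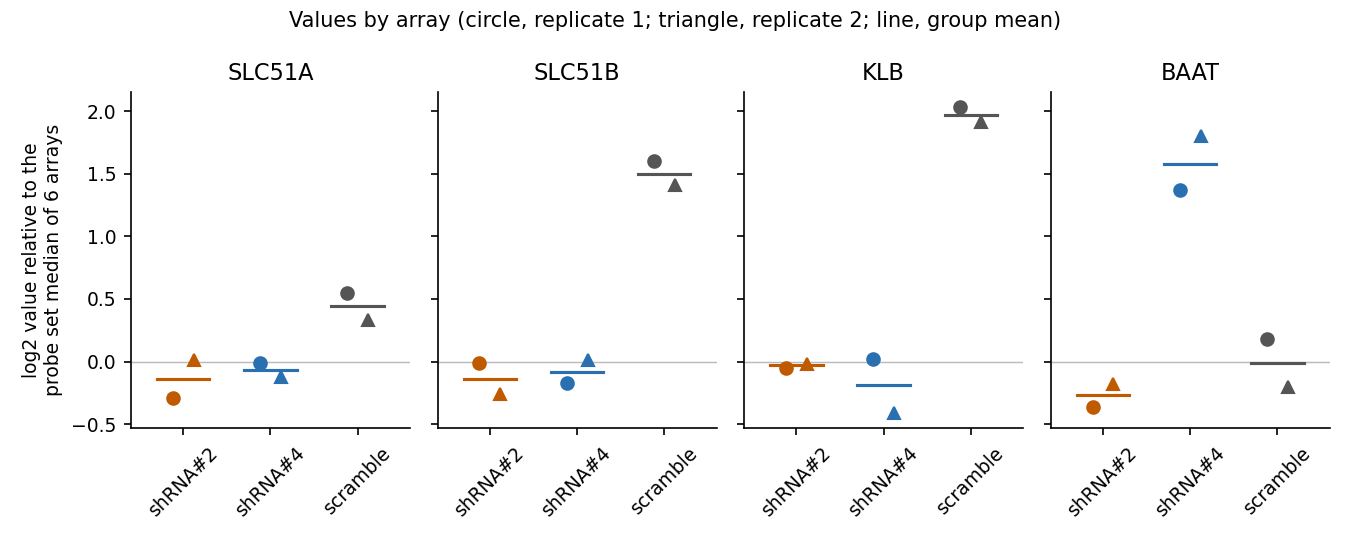
Values of SLC51A, SLC51B, KLB and BAAT in each array (y axis, log2 relative to the probe set median of the 6 arrays) by group (x axis: FAM46A-shRNA#2, FAM46A-shRNA#4, scramble). Circles and triangles are replicates 1 and 2 and lines are group means; the scramble arrays are high for the first 3 genes, while BAAT is high in the FAM46A-shRNA#4 arrays, at 1.37 and 1.80.

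These differences from scramble chose the genes and are given without a test. At an adjusted p under 0.05 in limma for the mean of both hairpins, 3 of the 4 were lower and 1 higher, beside 25.4% of all genes called in either direction, 10.6% lower and 14.8% higher. With FAM46A-shRNA#2 the count was 3 lower, where 21.6% of all genes were called, 9.54% lower and 12.1% higher. With FAM46A-shRNA#4 it was 3 lower and 1 higher, where 26.1% were called, 10.4% lower and 15.7% higher. The 4 hairpin arrays lay below both scramble arrays for 3 of the 4, beside 16.7% of all genes below, 19.5% above and 36.2% on either side. Nothing is read from these counts, since the same values selected the genes.

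The hairpins were also compared with each other, a contrast other than the one that chose SLC51A, SLC51B and KLB, although earlier results of these data were known. FAM46A-shRNA#2 minus FAM46A-shRNA#4 was -0.07 ± 0.120 for SLC51A (95% interval -0.36 to 0.22, limma adjusted p = 0.814), where 15.3% of all genes were called, 8.63% lower and 6.64% higher. It was -0.05 ± 0.114 for SLC51B (-0.33 to 0.22, limma adjusted p = 0.857) and 0.16 ± 0.133 for KLB (-0.16 to 0.49, limma adjusted p = 0.535). None of the 3 passed the threshold, and the widest interval, that of KLB, reached 0.49 on the log2 scale. The 3 genes were chosen with their low values in both hairpin groups known. A small difference between the hairpins partly follows from that choice, so no agreement of the hairpins is read from these tests. Without replicate 1 of FAM46A-shRNA#4 the KLB difference was 0.37 with a limma adjusted p of 0.0483. For BAAT the difference was -1.85 ± 0.178, the second most negative of all 14884 genes, and it is described without a test because that rank was known when the gene was chosen.

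**Figure D2:**
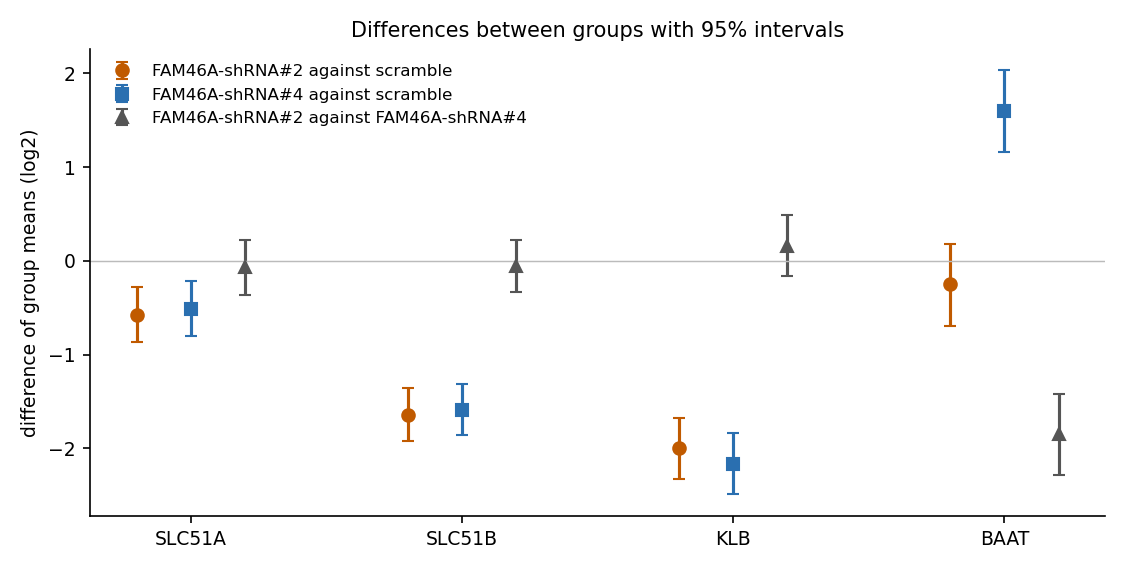
Differences of group means (y axis, log2) with 95% intervals of the limma fit for SLC51A, SLC51B, KLB and BAAT (x axis), for each hairpin against scramble and for FAM46A-shRNA#2 against FAM46A-shRNA#4. The 2 hairpins lie close together for the first 3 genes and apart for BAAT, at -0.25 and 1.60 against scramble.

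The genes most like each of the 4 were found by the root mean square difference over the 6 arrays. For KLB they were GSTA2 (0.08), a glutathione transferase, TM4SF20 (0.12) and FMO5 (0.15), a flavin monooxygenase. GSTA2 read -0.14, -0.08, 0.08 and -0.26 in the hairpin arrays, in the order FAM46A-shRNA#2 then FAM46A-shRNA#4, against 2.07 and 1.91 in scramble. For SLC51B they were PBLD (0.11), LRRC19 (0.122) and ARRDC4 (0.144), and for SLC51A they were ADCY1, an adenylyl cyclase (0.0577), the homeobox gene HOXC9 (0.0612) and PNPLA2, a triglyceride lipase (0.078). For BAAT the nearest were farther off, PEA15 (0.215), IGFL2 (0.251) and VGLL1 (0.28), a cofactor of TEAD factors. PEA15 read -0.18 and -0.04 in FAM46A-shRNA#2 cells and 1.51 and 1.43 in FAM46A-shRNA#4 cells, against 0.00 and -0.00 in scramble cells. Likeness over 6 arrays in 3 groups is a description of these arrays.

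Lists of related genes, which leave out the 4 genes themselves, were then read in the limma fit over all genes, with a call at an adjusted p under 0.05. In the list of nuclear receptors and transcription factors of bile acid genes, 13 of 31 genes were measured, 7 fell and 3 rose in the mean of both hairpins, beside 25.4% of all genes called, with a median difference of -0.26 against 0.00 for all genes. FXR itself (NR1H4) is among those not analysed here. CREB3L3, a membrane-bound transcription factor of lipid metabolism, read -0.25, 0.05, -0.19 and -0.05 in the hairpin arrays, against 1.43 and 1.23 in scramble, and fell by 1.43 ± 0.103 (limma adjusted p = 0.000504). GATA4, which in mice keeps ileal bile acid genes low in the jejunum, fell by 0.56 ± 0.051, and the fatty acid receptor PPARA fell by 0.55 ± 0.071. PROX1, a homeobox factor that represses bile acid synthesis genes in liver cells, rose by 0.99 ± 0.097, and the forkhead factor FOXA2 by 0.60 ± 0.065. CDX2, the intestinal homeobox factor, fell by 0.26 ± 0.065 (limma adjusted p = 0.0318). The count of 10 called genes was 6 without replicate 2 of scramble. The call of CDX2 ended there (limma adjusted p = 0.169) and without replicate 2 of FAM46A-shRNA#4 or either array of FAM46A-shRNA#2 (0.0518 to 0.0855).

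Between the hairpins 2 genes of that list were higher with FAM46A-shRNA#2, GATA4 by 0.30 ± 0.059 (limma adjusted p = 0.0207) and PPARG by 0.49 ± 0.099 (0.0237). That was 15.4% of the list, like the 15.3% of all genes called, so the count sets the list apart in no way. PPARG, a receptor of lipid metabolism, read 0.00 and 0.04 in FAM46A-shRNA#2 cells and -0.54 and -0.40 in FAM46A-shRNA#4 cells, against -0.00 and 0.26 in scramble cells. The FAM46A-shRNA#4 arrays, in which BAAT was high, lay below the other 4, and a relation of PPARG to BAAT was not tested. Its change in the mean of both hairpins, -0.36 ± 0.085 (limma adjusted p = 0.0271), lost its call without replicate 2 of scramble (0.115), either array of FAM46A-shRNA#2 or replicate 1 of FAM46A-shRNA#4.

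The list of FGF19 signal and klotho coreceptor genes had 15 of 19 measured, of which 2 fell and 3 rose in the mean of both hairpins, 33.3% beside 25.4% of all genes, with a median of 0.00, like that of all genes. With FAM46A-shRNA#2, 2 fell and 4 rose, 40% beside 21.6% of all genes. With FAM46A-shRNA#4, 1 fell and 3 rose, 26.7% beside 26.1%. FGFR4, the main receptor of FGF19 in liver, differed by 0.06 ± 0.052 in the mean (limma adjusted p = 0.488). Its FAM46A-shRNA#4 and scramble arrays overlapped, while the FAM46A-shRNA#2 arrays, at 0.03 and 0.08, lay just above all others. FGFR1, through which FGF21 signals with KLB, rose by 0.24 ± 0.040 (limma adjusted p = 0.00707), and FGFR3 read -0.03, -0.06, -0.08 and 0.03 in the hairpin arrays, against 0.69 and 0.49 in scramble, and fell by 0.63 ± 0.068. The adaptor SHC1 rose by 0.44 ± 0.067, while the docking protein GAB1 fell by 0.19 ± 0.051 (limma adjusted p = 0.0374). The GAB1 call ended in 5 of the 6 fits that left out 1 array, with adjusted p up to 0.193 without replicate 2 of scramble, and was kept without replicate 1 of FAM46A-shRNA#2.

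FGF19, the ligand, read -0.18 and -0.07 in FAM46A-shRNA#2 cells and -0.09 and 0.07 in FAM46A-shRNA#4 cells, against 0.12 and 0.19 in scramble cells, a difference of -0.22 ± 0.064 in the mean (limma adjusted p = 0.0529). With FAM46A-shRNA#2 alone it passed (-0.28 ± 0.074, limma adjusted p = 0.0437), and with FAM46A-shRNA#4 it did not (-0.16 ± 0.074, 0.188). The hairpins' own difference was -0.12 ± 0.074 (limma adjusted p = 0.384). The mean was called without replicate 2 of FAM46A-shRNA#4 (limma adjusted p = 0.0346). FGF21, the other ligand that needs KLB, differed by -0.01 ± 0.050 (limma adjusted p = 0.94), and KL, the klotho relative of KLB that serves FGF23, by -0.08 ± 0.048 (0.319).

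Between the hairpins 3 genes of this list were called, 20% of it, beside 15.3% of all genes. ETV4, an ETS factor, read 0.46 and 0.41 in FAM46A-shRNA#2 cells and -0.04 and 0.04 in FAM46A-shRNA#4 cells, against -0.21 and -0.20 in scramble cells. It rose by 0.42 ± 0.046 in the mean and was higher with FAM46A-shRNA#2 than with FAM46A-shRNA#4 by 0.43 ± 0.053 (limma adjusted p = 0.00564). The phosphatase gene DUSP6 and the ETS factor ETV5 were higher in the same comparison by 0.81 ± 0.145 (limma adjusted p = 0.0168) and 0.55 ± 0.100 (0.0172). DUSP6, ETV5, FGF19, FGF21, FGFR4, GAB1, KL, KRT18, PPARA, PPARG, TMEM184C, AHSG and APOB were named after their values were seen.

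Around BAAT, 4 of 22 other genes of bile acid synthesis and conjugation were measured, and none was called in the mean of both hairpins by limma. At an unadjusted p under 0.05 in limma the count was 2, ACOT8 and PEX5. The share of all genes at that looser threshold is not given here and is no lower than the 25.4% called after adjustment. Nothing is read from the count of 2. ACOT8, a peroxisomal thioesterase that acts on bile acid CoA esters, differed by -0.33 ± 0.104 (limma adjusted p = 0.0684), and was called without replicate 2 of FAM46A-shRNA#4 (0.0297). With FAM46A-shRNA#2 alone ACOT8 fell by 0.43 ± 0.120, at the edge of the threshold (limma adjusted p = 0.05 after rounding). The peroxisomal import receptor PEX5 differed by 0.10 ± 0.041, the beta-oxidation enzyme HSD17B4 by -0.05 ± 0.055 and the cholesterol hydroxylase CH25H by 0.01 ± 0.045. Of 12 genes that supply the taurine and glycine used by BAAT, 7 were measured, and 2 rose and 1 fell, 42.9% beside 25.4% of all genes. PSAT1, an enzyme of serine synthesis, rose by 1.34 ± 0.122 and SHMT2, which turns serine into glycine in mitochondria, by 0.49 ± 0.053. Apart from these and CSAD, the measured genes of this list were not called and lay between -0.12 and 0.01. They include other enzymes of serine and glycine synthesis, and the list median was 0.00. CSAD, which makes the taurine precursor hypotaurine, read -0.04 and 0.10 in FAM46A-shRNA#2 cells and -0.34 and -0.34 in FAM46A-shRNA#4 cells, against 0.25 and 0.04 in scramble cells. It fell by 0.30 ± 0.073 in the mean (limma adjusted p = 0.0281) and was lower with FAM46A-shRNA#4 than with FAM46A-shRNA#2, by a difference of 0.37 ± 0.085 (0.0344). The CSAD call in the mean ended without replicate 1 of scramble, without replicate 1 of FAM46A-shRNA#2 and without either array of FAM46A-shRNA#4, where its limma adjusted p lay between 0.068 and 0.151. Of 17 further bile acid transporters and carriers listed, 0 were among the named genes, so the uptake side was not analysed here.

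Among 10 measured relatives in sequence or fold of the 4 proteins, 3 fell and 1 rose in the mean of both hairpins, 40% beside 25.4% of all genes. LCT, the brush border lactase, which belongs with KLB to the family 1 glycoside hydrolases, read -0.13, -0.20, 0.10 and -0.10 in the hairpin arrays, against 2.15 and 1.94 in scramble, and fell by 2.13 ± 0.082. Of the SLC51A relatives, TMEM184A fell by 0.47 ± 0.098 (limma adjusted p = 0.017, and 0.107 without replicate 1 of scramble and 0.0511 without replicate 1 of FAM46A-shRNA#4), and TMEM184B rose by 0.34 ± 0.052. TMEM184C read -0.48 and -0.52 in FAM46A-shRNA#2 cells and 0.31 and 0.25 in FAM46A-shRNA#4 cells, against 0.05 and -0.05 in scramble cells. It lay on opposite sides of scramble with the hairpins, with a difference of -0.78 ± 0.058 between them (limma adjusted p = 0.00215). Of the thioesterases related to BAAT, ACOT1 fell by 0.33 ± 0.063 (limma adjusted p = 0.0124, and 0.0704 without replicate 2 of scramble). ACOT1 has a near-identical copy in the genome, and cross-hybridisation between them was not analysed here.

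**Figure D3:**
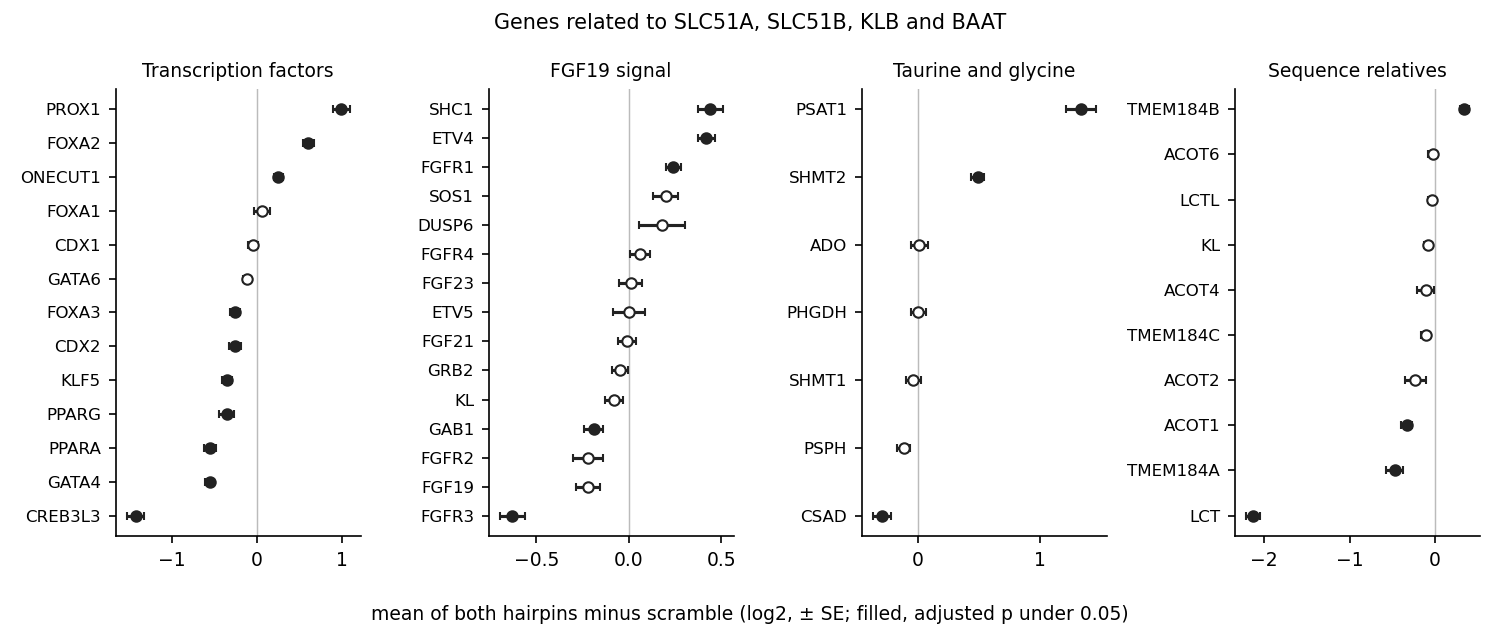
Difference of the mean of both hairpins from scramble (x axis, log2, with SE) for each measured gene of 4 lists (y axis), with SLC51A, SLC51B, KLB and BAAT left out. Filled points passed an adjusted p under 0.05; CREB3L3 at -1.43 and LCT at -2.13 are the lowest of their lists, and PSAT1 at 1.34 is the highest of the taurine and glycine list.

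Genes next to the 4 on their chromosomes were read in the same fit. Of the 16 nearest measured protein-coding genes in RefSeq order, 4 for each, 2 rose and the others were not called in the mean of both hairpins, 12.5% beside 25.4% of all genes. TM4SF19, beside SLC51A on chromosome 3, rose by 0.34 ± 0.053 (limma adjusted p = 0.00552). WDR19, beside KLB on chromosome 4 and needed for transport in cilia, rose by 0.43 ± 0.097 (limma adjusted p = 0.0223), a call that ended without replicate 1 of scramble (0.103), without replicate 1 of FAM46A-shRNA#2 and without either array of FAM46A-shRNA#4. With FAM46A-shRNA#2 alone 2 neighbours fell and 3 rose, 31.2% beside 21.6% of all genes. With FAM46A-shRNA#4 alone 3 rose, 18.8% beside 26.1%. Between the hairpins 25% were called, beside 15.3%. APOD beside SLC51A fell by 0.85 ± 0.200 with FAM46A-shRNA#2 (limma adjusted p = 0.0303) and stood at 0.39 ± 0.200 with FAM46A-shRNA#4 (0.234). MRPL50, a mitochondrial ribosomal protein gene beside BAAT on chromosome 9, rose by 0.31 ± 0.062 with FAM46A-shRNA#4 (limma adjusted p = 0.0144). It stood at 0.05 ± 0.062 with FAM46A-shRNA#2. BAAT too was high with FAM46A-shRNA#4, but its other neighbours CAVIN4, PLPPR1 and ZNF189 were not called there, at 0.13, -0.05 and -0.20. A link between MRPL50 and BAAT was not tested. XXYLT1, near SLC51A, rose and KLHL5, near KLB, fell with FAM46A-shRNA#2, by 0.20 ± 0.051 and 0.31 ± 0.080. The 10 neighbours called in no comparison, CAVIN4, PLPPR1 and ZNF189 among them, lay between -0.25 and 0.28 against scramble. The share of all genes called in no comparison is not given here.

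**Figure D4:**
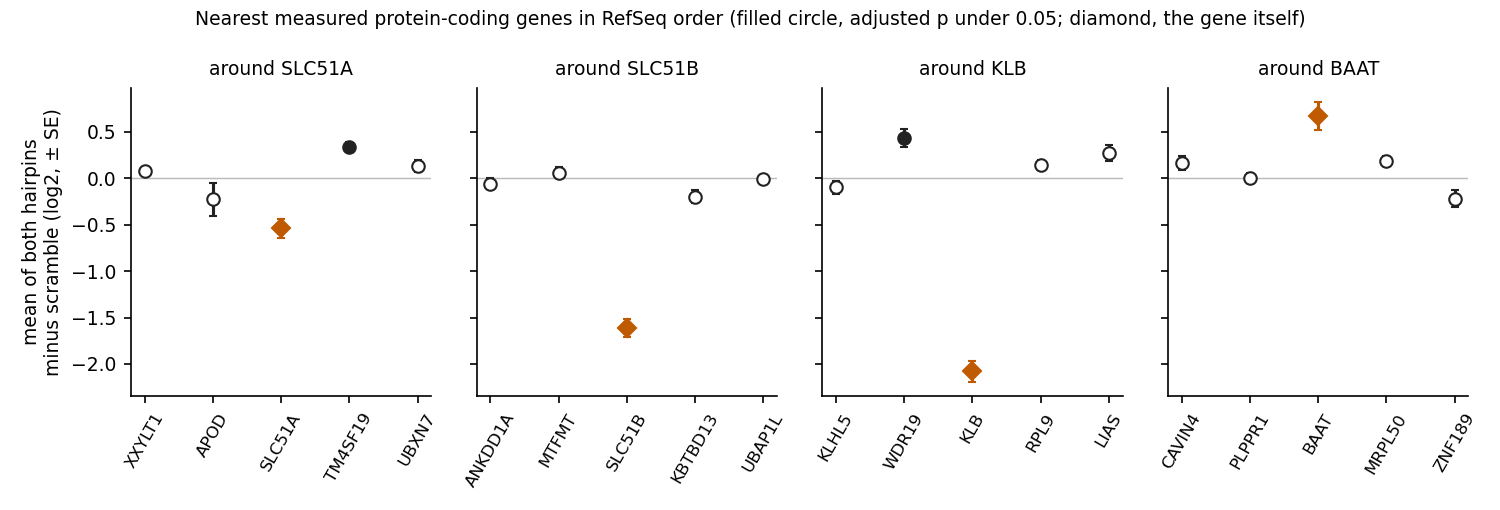
Difference of the mean of both hairpins from scramble (y axis, log2, with SE) for SLC51A, SLC51B, KLB and BAAT (diamonds) and the nearest measured protein-coding genes on either side in RefSeq order (circles, x axis by order and not to scale). Filled circles passed an adjusted p under 0.05; these are TM4SF19 at 0.34 and WDR19 at 0.43, while SLC51B and KLB lie at -1.61 and -2.08.

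Markers of epithelial and other cells moved with the groups, and their part in the differences above was not tested. Of 9 measured intestinal epithelial markers 5 fell in the mean of both hairpins, among them KRT20 by 1.19 ± 0.206, GPA33 by 0.98 ± 0.175 and VIL1 by 0.61 ± 0.059. That was 55.6% of the list, beside 25.4% of all genes, and the count was 2 without replicate 2 of scramble, where GPA33 lost its call (limma adjusted p = 0.0623). The other 4 were not called and lay between -0.05 and 0.30. Among these the keratin KRT18 rose with FAM46A-shRNA#4 (0.49 ± 0.123, limma adjusted p = 0.0315), and its mean was called without replicate 1 of FAM46A-shRNA#4 (0.0491). The array means of this list ran from -0.08 to 0.01 in FAM46A-shRNA#2 cells and from -0.08 to 0.04 in FAM46A-shRNA#4 cells, against 0.26 to 0.30 in scramble cells. Of 13 measured hepatocyte markers, several of which intestinal epithelium also makes, 11 fell, with a median of -1.15. Their share of the list was 84.6%, beside 25.4% of all genes. TTR fell by 1.58 ± 0.163, AFP by 1.58 ± 0.149, APOA1 by 1.46 ± 0.045 and ALB by 1.42 ± 0.128. Their array means ran from -0.33 to -0.25 in FAM46A-shRNA#2 cells and from -0.15 to -0.12 in FAM46A-shRNA#4 cells, against 0.82 to 0.84 in scramble cells. Of 6 measured markers of immune, endothelial and stromal cells 2 fell and 1 rose, 50% beside 25.4% of all genes. CD68 fell by 2.01 ± 0.172, LAPTM5 fell by 0.77 ± 0.128 and VIM rose by 0.28 ± 0.048. The VIM call ended without replicate 1 of scramble (limma adjusted p = 0.0572). PECAM1, VWF and DCN were not called, at -0.04, 0.00 and -0.01, and the median difference of this list was -0.02. The array means of this list ran from -0.10 to -0.01 and from -0.05 to 0.01 in the FAM46A-shRNA#2 and FAM46A-shRNA#4 cells, against 0.35 to 0.43 in scramble cells. The higher means in scramble cells come from CD68 and LAPTM5 and do not describe the list as a whole. The centred values do not show which markers are absent, so the label of the line could not be checked in this way.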

How the data were processed

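Total RNA of Caco-2 cells (100 ng a sample) was measured on 6 single-channel Affymetrix arrays after labelling with the WT PLUS kit, per the labels' protocols. The values were deposited by the authors relative to the median of each probe set, since the 6 values of each of the 48144 probe sets had a median within 1e-06 of 0. They were read here as log2, an assumption on which every fold value rests. The sources used here do not give the background correction, summarisation, normalization or log base. Of the probe sets, 16098 had 1 gene in the platform table, 0 had several and 32046 had none, and the probe sets of a gene were averaged. Symbols, gene order and promoters came from RefSeq (GRCh38.p14), where all 4 genes matched.

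One limma fit (3.58.1, R 4.3.3) covered 3 groups and 6 arrays (lmFit and eBayes with no trend, with 3 degrees of freedom from the residuals and 3.09 from the prior), with Benjamini-Hochberg adjustment over 14884 genes. The fit was also run on simulated data, with independent normal noise and far fewer changed genes than were called here. No result is drawn from that run. The labels call the arrays biological replicates, and what separates them is not given, so a p-value reflects the spread between these samples only, which may be technical, and precision is limited by the number of arrays. Correlations of arrays within a group, over centred probe sets, were 0.524 to 0.768. The members and lists were chosen with earlier results of these data known. The BAAT difference between hairpins, planned as a test, is given without a p because its rank was known. Named genes were the 4, up to 4 called genes of each list with the largest changes (lists of up to 6 genes whole), the neighbours, and the 3 most similar genes of each. Alternatives were the replicate number as a block, quantile normalization, arrays centred on their medians, a robust prior, array weights, probe sets not averaged, only the compared arrays, 1 group of hairpins, a threshold of 0.01, and 1 array left out at a time. Figures were drawn with matplotlib 3.10.9.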

Additional observations from a re-analysis of the deposited data

Results flagged for a closer look

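BAAT was lower than the scramble mean in both FAM46A-shRNA#2 arrays and higher in both FAM46A-shRNA#4 arrays, with a difference of -1.85 ± 0.178 between the hairpins that was not tested. The 95% interval of its difference between FAM46A-shRNA#2 and scramble included 0. TMEM184C (-0.78 ± 0.058, limma adjusted p = 0.00215) was called below scramble with FAM46A-shRNA#2 and above it with FAM46A-shRNA#4. APOD (-1.24 ± 0.200, limma adjusted p = 0.0123) was called below scramble with FAM46A-shRNA#2 and was not called with FAM46A-shRNA#4.

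The effects of the hairpins also differed in limma for other named genes of the lists and neighbours. For genes of the lists and neighbours, calls between the hairpins or with a single hairpin were read in the main fit alone. How these calls depend on the alternative settings or on single arrays was not examined. Higher with FAM46A-shRNA#2 were DUSP6 by 0.81 (adjusted p = 0.0168), ETV5 by 0.55 (0.0172), PPARG by 0.49 (0.0237), ETV4 by 0.43 (0.00564), CSAD by 0.37 (0.0344), GATA4 by 0.30 (0.0207) and XXYLT1 by 0.25 (0.0239). Lower with FAM46A-shRNA#2 were the hepatocyte markers AHSG (-0.99, limma adjusted p = 0.0161), AFP (-0.77, 0.0332), APOB (-0.51, 0.0066) and APOA1 (-0.45, 0.00492). These were the 4 called of 13 measured hepatocyte markers, 30.8% beside 15.3% of all genes. The list as a whole was not lower, with a median difference of 0.00, and APOH stood at 0.50 without a call (limma adjusted p = 0.0897). Also lower with FAM46A-shRNA#2 were KLHL5 (-0.41, limma adjusted p = 0.0222), VIM (-0.28, 0.022) and MRPL50 (-0.25, 0.0431).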

How the results depend on the processing

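Against scramble, SLC51A, SLC51B and KLB were lower in each setting run, with ranges for the mean of both hairpins of -0.66 to -0.43, -1.71 to -1.19 and -2.19 to -1.48. Array weights, the robust prior, the replicate block, probe sets not averaged and 1 group of hairpins left these differences as they were. All hairpin arrays lay below both scramble arrays for these genes, so leaving out 1 array could not turn the sign. The shared sign is therefore not read as a check. Quantile normalization, which gives all arrays 1 distribution, gave the smallest SLC51B and KLB values: -1.19 and -1.48 for the mean, -1.23 and -1.38 for FAM46A-shRNA#2, -1.15 and -1.57 for FAM46A-shRNA#4. Leaving out 1 array, KLB with FAM46A-shRNA#4 lay between -2.38 and -1.96. BAAT lay between 1.38 and 1.81 with FAM46A-shRNA#4, between -0.44 and -0.06 with FAM46A-shRNA#2, and between -2.06 and -1.63 for FAM46A-shRNA#2 against FAM46A-shRNA#4. Between the hairpins, leaving out 1 array gave -0.22 to 0.08 for SLC51A, -0.18 to 0.08 for SLC51B and -0.05 to 0.37 for KLB, whose adjusted p (limma) was 0.0483 without replicate 1 of FAM46A-shRNA#4.

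Calls over all genes were 3784, against 1756 with the hairpin arrays as 1 group, 2158 at an adjusted p under 0.01 and 2477 to 3358 without 1 array, the lowest without replicate 1 of scramble. The transcription factor list went to 6 calls with 1 hairpin group and under 0.01, and to 6 to 9 without 1 array. The FGF19 list had 2 calls with 1 hairpin group, and the relatives had 2 under 0.01. Without 1 array, bile acid synthesis had 0 to 1 calls and the neighbours 1 to 3, and the neighbours had 1 with every probe set and under 0.01. Signs of uncalled genes turned without 1 array, with ranges of -0.01 to 0.03 for CH25H, -0.06 to 0.07 for ETV5, -0.03 to 0.02 for FGF21 and -0.11 to 0.02 for HSD17B4.

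The labels number 2 replicates in each group, and deviations of equal numbers correlated at 0.119 to 0.199 over genes. With the replicate block 4160 genes were called, 1 of bile acid synthesis (ACOT8) and 5 neighbours. FGF19 (-0.22, limma adjusted p = 0.0181), KRT18 (0.30, 0.00811), APOD (-0.23, 0.0198) and MRPL50 (0.18, 0.0316) were called with the block and not without it. The cause of these changes was not tested. Background correction and a filter on dim probe sets were not run, since centred values hold no signal level.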
